A study of Mus musculus with 9 samples.

Results

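The alpha crystallins and small heat shock proteins described here were 5 genes of the 54532 in the deposited count table: Cryaa, Cryab, Hspb1, Hspb6 and Hspb8. They were taken from the table by gene name, with earlier results of these data known, and all 5 passed the filter on low counts. The table held retinal RNA from 9 wild-type C57BL/6 mice taken at postnatal day 17 (P17), with 3 mice in each of 3 groups. Control mice were raised in room air, and their labels also gave DMSO. OIR (oxygen-induced retinopathy) mice were kept in high oxygen as pups, which closes off central retinal vessels, were returned to room air on P12 and then received an intraocular injection of the DMSO vehicle. Treated OIR mice went through the same oxygen exposure and received 32-134D (70 ng in the sample label, 70 ng per microliter in the treatment protocol), an inhibitor of the hypoxia-inducible factors (HIFs), by intraocular injection on P12. Each library was a whole retina, so that fewer cells of a type and less RNA per cell could not be told apart. Mice are named below by their group and the number in their sample title, and these numbers did not tie mice of different groups together.

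Small heat shock proteins share a conserved alpha-crystallin domain, assemble into large oligomers and hold unfolding proteins in a soluble state without using ATP. Cryaa encodes alpha A crystallin and is the most lens-restricted of the 5. Cryab encodes alpha B crystallin, which is abundant in the lens but is also made in muscle, heart, brain and glia, where it binds desmin, vimentin and GFAP filaments. In the retina both alpha crystallins have been found in neurons, glia and pigment epithelium and are known to rise after many kinds of injury. Hspb1 (HSP25 in mouse) protects the actin cytoskeleton and is induced by stress. Hspb6 (HSP20) is best known from smooth and cardiac muscle. Hspb8 (HSP22) works with the co-chaperone Bag3, with Hspa8 and with the ubiquitin ligase Stub1 to deliver misfolded proteins to autophagy.

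The library of treated OIR mouse 2 stood apart. The 13 beta and gamma crystallin genes, which encode the bulk proteins of lens fiber cells, took 9.95% of its counts, against 0.00123% to 0.124% in the other 8 libraries. The 5 members took 5.83% of its counts against 0.0206% to 0.0753%. It is therefore given apart, and the comparisons were fitted on the other 8 mice, which left 2 treated OIR mice. Total counts per library were 16028731 to 27213184. Levels are given as CPM, counts per 1e6 scaled counts. Sag, which encodes rod arrestin, stood at 4131 CPM in treated OIR mouse 2 and at 4678 to 6196 CPM in the other libraries, so that the retinal label held in all 9.

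Cryaa (ENSMUSG00000024041) lies on chr17:31677933-31681724, plus strand, in the deposited table, whose positions are those of mouse build GRCm38. Cryab (ENSMUSG00000032060) lies on chr9:50751325-50756636, plus strand, and overlaps the start of Hspb2, another small heat shock gene that is read from the opposite strand. Hspb1 (ENSMUSG00000004951) and Hspb8 (ENSMUSG00000041548) both lie on chromosome 5, at chr5:135887919-135889563, plus strand, and chr5:116408491-116422864, minus strand. Hspb6 (ENSMUSG00000036854) lies on chr7:30552178-30555443, plus strand, and overlaps Lin37 and Proser3. An antisense gene lies over Cryaa in GENCODE M21, though not in the table. Whether counting used strand was not given in the sources used here, so reads in the overlaps of Cryaa, Cryab and Hspb6 could not be assigned with certainty. Hspb2 itself stood at only 0.193 to 0.945 CPM in the 8 mice.

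Heat shock factors bind DNA at heat shock elements, which are built from inverted repeats of the letters GAA. Windows from 250 bases before to 50 bases after the RefSeq start were held for 4 of the 5 genes (Cryaa, Hspb1, Hspb6 with 2 starts, and Hspb8). The letters GAANNTTC, which read the same on both strands and in which N is any base, occurred in the windows of Hspb1, Hspb6 and Hspb8 and in neither Cryaa nor the upstream start of Hspb6. Of all 32851 windows 7.86% held these letters. The 3 genes shared the 8 letters GAAGTTTC, found on either strand in 1.21% of all windows. These letters were chosen after the windows were seen, so the 1.21% is no test of the sharing. The stretches of 100 bases that hold them are shown because the same letters occur in the member that fell in OIR, Hspb8, and in members that did not pass the test, Hspb1 and Hspb6. They are RefSeq sequence of build GRCm38.p6 on the gene's own strand, with each match to GAANNTTC in capitals.
Hspb8, chr5:116422845-116422944, minus strand, from base -80 to base 20 of the start: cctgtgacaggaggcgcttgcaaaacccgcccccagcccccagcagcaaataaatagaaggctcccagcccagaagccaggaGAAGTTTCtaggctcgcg
Hspb1, chr5:135887769-135887868, plus strand, from base -150 to base -51: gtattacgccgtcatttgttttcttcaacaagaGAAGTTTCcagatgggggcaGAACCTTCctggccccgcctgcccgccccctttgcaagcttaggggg
Hspb6, downstream start, chr7:30553151-30553250, plus strand, from base -150 to base -51: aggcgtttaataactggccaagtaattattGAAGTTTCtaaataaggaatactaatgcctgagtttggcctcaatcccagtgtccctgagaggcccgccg
In Hspb8 the match began at base 3 after the start, whereas in Hspb1 it began at base -117, with the other match at base -97, and in Hspb6 at base -120. ACGTG, the core letters of the element that HIFs bind, was found on neither strand in any of the 5 member windows, against 19.6% of all windows. A match in letters is a description, and no match says only that these letters are not in this window.

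Levels between genes were compared per length, as FPKM, which is CPM divided by the gene length of the table in kilobases. Over the 8 mice Cryab had the highest mean at 75.8 ± 32.1 FPKM (SD, n = 8), followed by Hspb6 at 60.6 ± 9.23, Cryaa at 44.1 ± 54.9, Hspb1 at 10.9 ± 2.99 and Hspb8 at 6.65 ± 1.98 FPKM. This order was not the same in every mouse. Cryab exceeded Hspb6 in 6 of 8 mice, Hspb6 exceeded Cryaa in 6, Cryaa exceeded Hspb1 in 5 and Hspb1 exceeded Hspb8 in 7. The means of Cryab, Hspb6 and Cryaa lay closer together than the SD of Cryab or of Cryaa, so that their order was not resolved. The members differed far more in how steady they were. The highest of the 8 mice exceeded the lowest 206-fold for Cryaa, 3.56-fold for Cryab, 2.64-fold for Hspb8, 2.37-fold for Hspb1 and 1.69-fold for Hspb6.

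**Figure D1:**
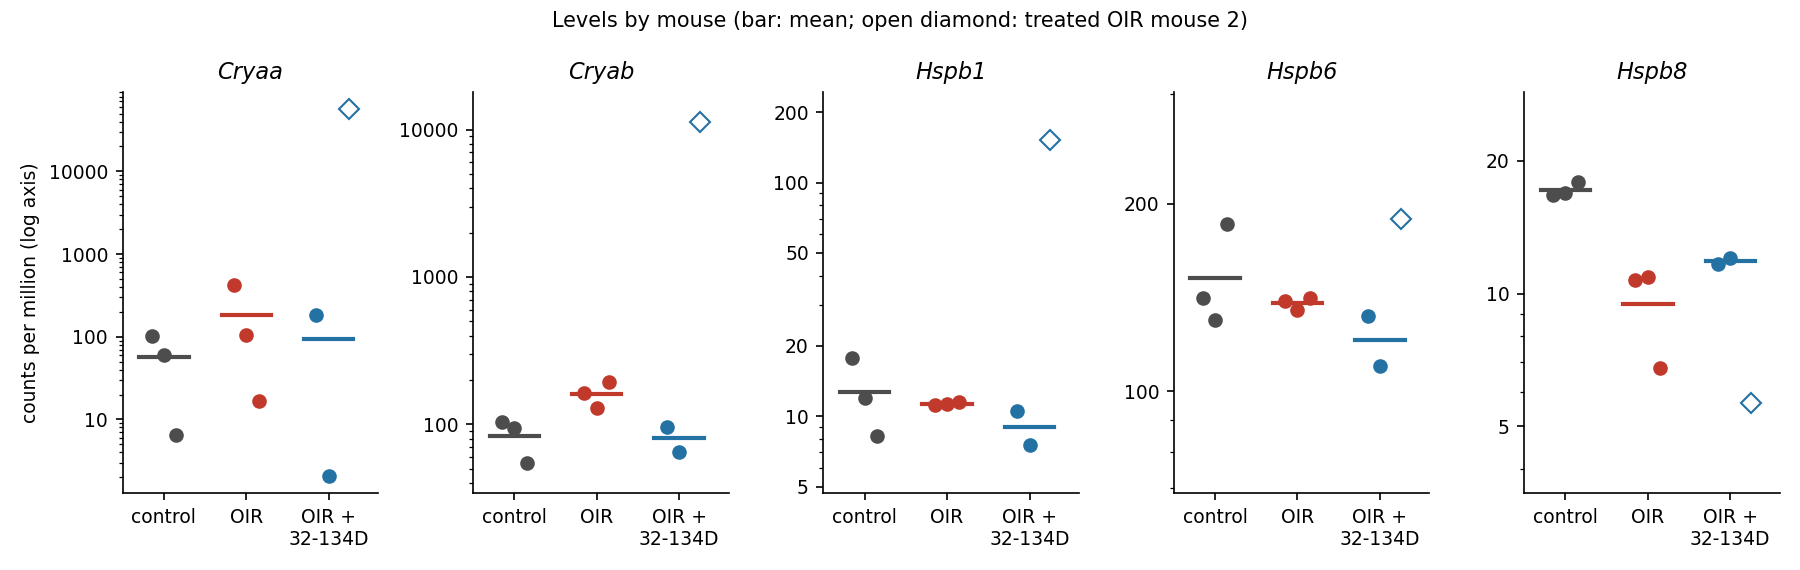
CPM of each gene on a log axis in control, OIR and treated OIR (OIR + 32-134D) mice; dots are mice, bars are means of the dots, and the open diamond is treated OIR mouse 2, which no mean includes. Cryaa spanned 206-fold among the dots, OIR dots lay above control for Cryab and below control for Hspb8, and the diamond lay above every dot for each gene but Hspb8, where it lay below every dot.

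Cryaa varied from mouse to mouse within every group. It stood at 102 CPM in control mouse 1, 60.6 in control mouse 6 and 6.45 in control mouse 7. In OIR it stood at 424, 105 and 16.6 CPM in mice 3, 5 and 6, and in treated OIR at 186 and 2.06 CPM in mice 5 and 10. Each group held mice of high and of low Cryaa, and the groups overlapped. The 3 genes whose log2 CPM followed Cryaa most closely over the 8 mice, among 14022 genes with a mean log2 CPM of at least 1, were the beta crystallins Crybb1 (r = 0.993), Cryba2 (r = 0.991) and Cryba1 (r = 0.988). These are correlations over 8 libraries, given as a description. All 13 beta and gamma crystallin genes had counts in every mouse, and their summed level followed Cryaa from 11.8 CPM in treated OIR mouse 10 to 1233 CPM in OIR mouse 3. Cryaa is used below as a gauge of lens RNA on this account.

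In treated OIR mouse 2 Cryaa was the most abundant gene of the library, at 56963 CPM, which was 134-fold the highest of the other 8 mice. Cryab stood at 11254 CPM, 57.9-fold the highest of the others, and ranked seventh. The 10 most abundant genes there included Cryaa, Crygd, Cryba1, Crybb2, Crygb, Cryab, Crygc, Crybb1 and Crybb3. Hspb1 stood at 152 CPM, 8.58-fold the highest of the others. Hspb6 stood at 189 CPM, which was 1.02-fold the highest of the others, control mouse 7 at 185 CPM. Hspb8 went the other way, with 5.65 CPM against a lowest value of 6.79 CPM elsewhere. With treated OIR mice 5 and 10 as the baseline, each 1000 CPM of Cryaa gained in this mouse came with 196 CPM of Cryab, 2.52 CPM of Hspb1 and 1.20 CPM of Hspb6. For Hspb8 the same figure was -0.11 CPM.

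**Figure D2:**
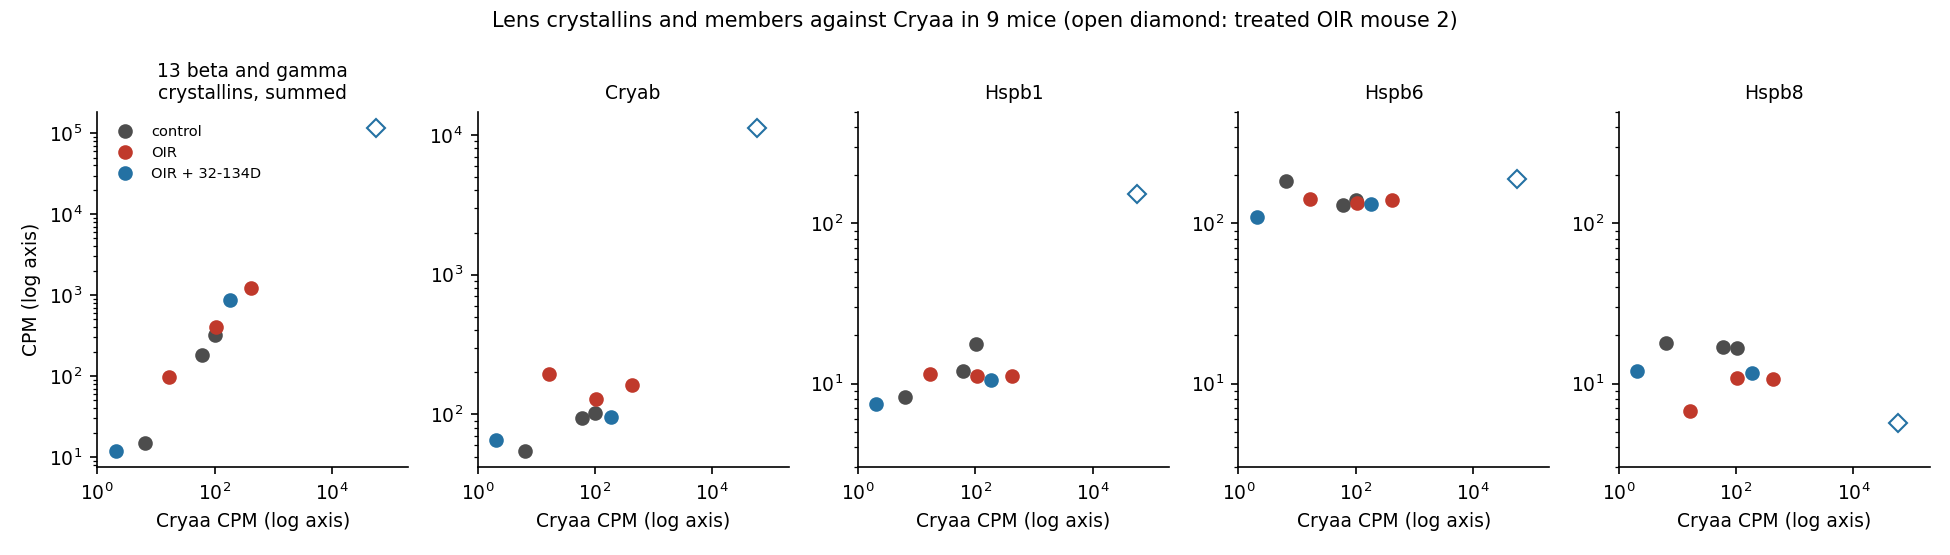
CPM of the 13 beta and gamma crystallins summed and of Cryab, Hspb1, Hspb6 and Hspb8 against CPM of Cryaa, both on log axes, in all 9 mice; colors are groups and the open diamond is treated OIR mouse 2. The summed crystallins rose with Cryaa over the whole range, whereas Hspb6 and Hspb8 did not follow it among the 8 dots (r = 0.04 and -0.04 on the log2 scale).

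These ratios were used to split the Cryab level of each of the other 8 mice into the amount that lens RNA of that make-up would carry and the remainder. The lens-carried share of Cryab was 19.5%, 12.7% and 2.32% in control mice 1, 6 and 7. OIR mouse 3 had 51.3%, OIR mouse 5 had 16.1% and OIR mouse 6 had 1.68%. Treated OIR mouse 5 had 38.3% and treated OIR mouse 10 had 0.619%. The share was thus high in OIR mouse 3 and treated OIR mouse 5 and near 0 in 3 mice, 1 of each group. The share of Hspb1 was at most 9.61% (OIR mouse 3), and that of Hspb6 at most 0.363%. The ratio of Cryab to Cryaa was 0.198 in treated OIR mouse 2 and 0.383 (OIR mouse 3) to 31.8 (treated OIR mouse 10) in the others.

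The gauge rests on a constant make-up of lens RNA, and that was not met in full. Beta and gamma crystallins stood at 2.05 CPM per CPM of Cryaa in treated OIR mouse 2 and at 2.33 to 5.86 in the other mice. Cryga, a gamma crystallin of fiber cells, stood at 0.0239 CPM per CPM of Cryaa in treated OIR mouse 2, at 0.040 to 0.051 in control, at 0.100 to 0.259 in OIR and at 0.225 to 0.226 in the other treated OIR mice. Some of these ratios rest on few counts, since Cryga was only 0.258 CPM in control mouse 7 and 0.463 CPM in treated OIR mouse 10. Retinal Cryaa and lens Cryaa cannot be told apart in these counts, and the split assigns all Cryaa to the lens.

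The comparison of OIR with control asked which members differed after oxygen exposure and the return to room air. OIR mice were also injected on P12, and no injection day was given for control mice. Effects of the oxygen exposure and of an injection therefore could not be told apart. Of the 5 members 1 rose (Cryab), 1 fell (Hspb8) and 3 did not pass the test, where 12.5% of the 18116 genes tested passed, 3.95% of them higher and 8.59% lower. The median log2 fold change of the members was -0.15, against 0.01 over all genes. Cryab and Hspb8 were also the members whose groups did not overlap, which held for 14.0% of all genes in the higher and 18.3% in the lower direction. Over the 8 mice r between Cryab and Hspb8 was -0.74. That value takes in the opposite group differences just given, so it is a description and no separate support.

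Cryab stood at 103, 93.8 and 54.5 CPM in control mice 1, 6 and 7 and at 162, 129 and 194 CPM in OIR mice 3, 5 and 6. The lowest OIR mouse lay above the highest control mouse. The group means were 83.8 ± 25.7 CPM in control and 162 ± 32.9 CPM in OIR (SD, n = 3 each). The log2 fold change was 0.92 (SE 0.26, adjusted p = 0.0460 by the quasi-likelihood test of edgeR), close to the threshold of 0.05. With treated OIR mouse 2 kept, 0.941% of genes were called and neither Cryab nor Hspb8 was (adjusted p = 0.736 and 0.130). The Cryab call was also lost when any of 6 of the 8 mice was left out (control mice 6 and 7, OIR mice 3, 5 and 6, and treated OIR mouse 5), with adjusted p values up to 0.0999 and log2 fold changes of 0.72 to 1.11 over the 8 omissions.

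After the lens-carried amount was taken away, 83.0, 81.9 and 53.3 CPM of Cryab remained in control mice 1, 6 and 7, and 79.1, 108 and 191 CPM in OIR mice 3, 5 and 6. The remainder of OIR mouse 3 fell between those of the control mice, so that the groups overlapped. Means of the remainder were 72.7 ± 16.8 CPM in control and 126 ± 58.2 CPM in OIR (SD, n = 3 each). With these counts subtracted before the fit, an alternative chosen after seeing the data, the log2 fold change of Cryab was 0.77 (SE 0.30, edgeR adjusted p = 0.121). With log2 Cryaa as a covariate it was 0.87 (SE 0.24, edgeR adjusted p = 0.0654). OIR mouse 6 combined the highest Cryab (194 CPM) with a lens-carried share of only 1.68%.

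**Figure D3:**
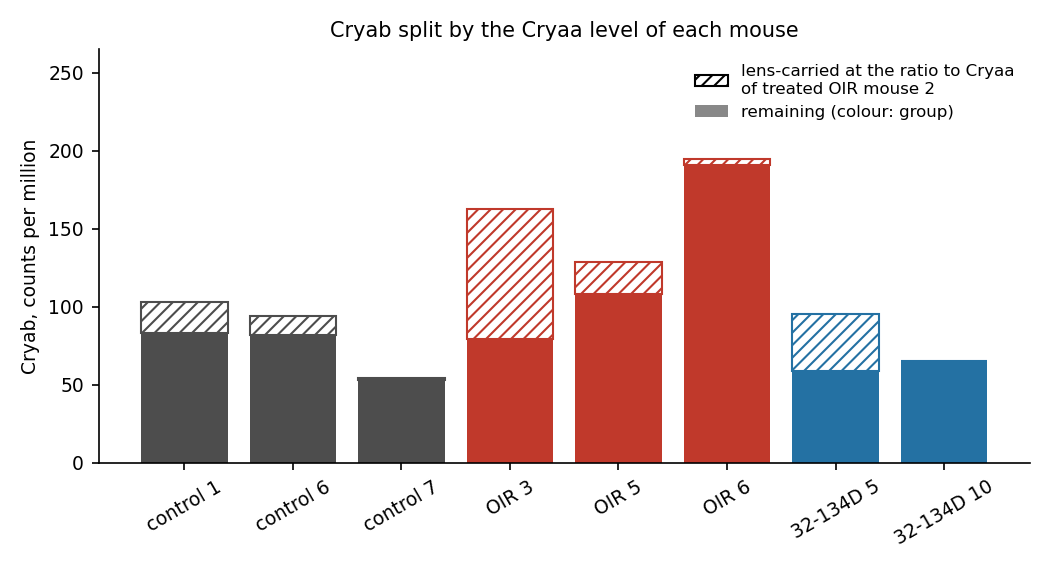
Cryab CPM in the 8 mice fitted (32-134D marks treated OIR mice), from 0; the hatched part of each bar is the amount that lens RNA would carry at the ratio to Cryaa of treated OIR mouse 2, and the filled part is the remainder. The hatched part made up 51.3% of the bar of OIR mouse 3, whose remainder fell within the range of control, and 1.68% of the tallest bar, OIR mouse 6.

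Of 12 genes of Müller glia and astrocytes 3 rose in OIR and none fell: Slc1a3, the glial glutamate transporter (log2 fold change 0.93, SE 0.15, adjusted p = 0.00714), Sox9, a glial transcription factor (1.02, SE 0.17, adjusted p = 0.00710), and Car14, a carbonic anhydrase (0.50, SE 0.11, adjusted p = 0.0182). Over all genes tested 3.95% rose and 8.59% fell. The median log2 fold change of the 12 was 0.55. Rlbp1 alone lay below 0 (-0.30, SE 0.13, edgeR adjusted p = 0.155), and Glul (0.02) and S100b (0.006) lay near 0. The 12 genes summed to 4577 to 5695 CPM in control, 5896 to 7115 CPM in OIR and 4955 to 5547 CPM in treated OIR mice 5 and 10. Gfap, the intermediate filament of reactive glia that binds alpha B crystallin, stood at 217, 157 and 58.2 CPM in control mice 1, 6 and 7 and at 231, 316 and 703 CPM in OIR mice 3, 5 and 6. OIR mouse 6 was highest and control mouse 7 lowest for both Gfap and Cryab, and Gfap did not pass the test (log2 fold change 1.50, SE 0.52, adjusted p = 0.0889). The part of glial RNA in the Cryab difference was not tested. The genes nearest to Cryab over the 8 mice were Tapbp (r = 0.981), which helps load peptides on MHC class I molecules, Resf1 (r = 0.973) and Chrnb4 (r = 0.970), a nicotinic receptor subunit. These r values are the highest among 14022 genes and take in the group differences, so they are a description.

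Hspb8 was steadier than Cryab among control mice (SD of log2 CPM 0.053 against 0.495) and not among OIR mice (0.384 against 0.299). Hspb8 stood at 16.8, 16.9 and 17.9 CPM in control mice 1, 6 and 7. In OIR mice 3, 5 and 6 it stood at 10.7, 10.9 and 6.79 CPM. The 3 control values lay close together, and all 3 OIR values lay below them, OIR mouse 6 lowest. The group means were 17.2 ± 0.636 CPM in control and 9.48 ± 2.33 CPM in OIR (SD, n = 3 each). Hspb8 fell by 0.88 on the log2 scale (SE 0.19, edgeR adjusted p = 0.0178). The call was lost without control mouse 6 (adjusted p = 0.0549) and without control mouse 7 (adjusted p = 0.0647), and the log2 fold change ranged from -0.99 to -0.66 over the 8 omissions. The counts behind these values were 278 to 480 in control and 151 to 234 in OIR. No lens-carried share was computed for Hspb8, which was lowest in the lens-rich library. The genes nearest to Hspb8 over the 8 mice were Rgs7, a regulator of G protein signaling in neurons (r = 0.992), Tango2 (r = 0.992) and Vgf, a neuropeptide precursor (r = 0.989). These r values are the highest among 14022 genes and take in the group differences, so they are a description.

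Hspb1 stood at 17.8, 11.9 and 8.25 CPM in control mice 1, 6 and 7 and at 11.1, 11.2 and 11.6 CPM in OIR mice 3, 5 and 6. The OIR values were close together and lay inside the range of control. The log2 fold change was -0.20 (SE 0.27, edgeR adjusted p = 0.691), and it was 0.15 without control mouse 1. Hspb6 stood at 141, 130 and 185 CPM in control mice 1, 6 and 7 and at 140, 135 and 141 CPM in OIR mice 3, 5 and 6. Its groups overlapped, with control mouse 7 above the rest, and its log2 fold change was -0.15 (SE 0.13, edgeR adjusted p = 0.505) and 0.03 without control mouse 7. Cryaa had a log2 fold change of 1.66 with an SE of 1.41 (edgeR adjusted p = 0.486), and the log2 fold change was 0.05 without OIR mouse 3 and ranged up to 2.42 over the 8 omissions. Without a filter on low counts Cryaa passed the threshold (edgeR adjusted p = 0.0198). There its log2 fold change was again 1.66 and only the SE was smaller (0.51), while the mice of the 2 groups still overlapped.

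**Figure D4:**
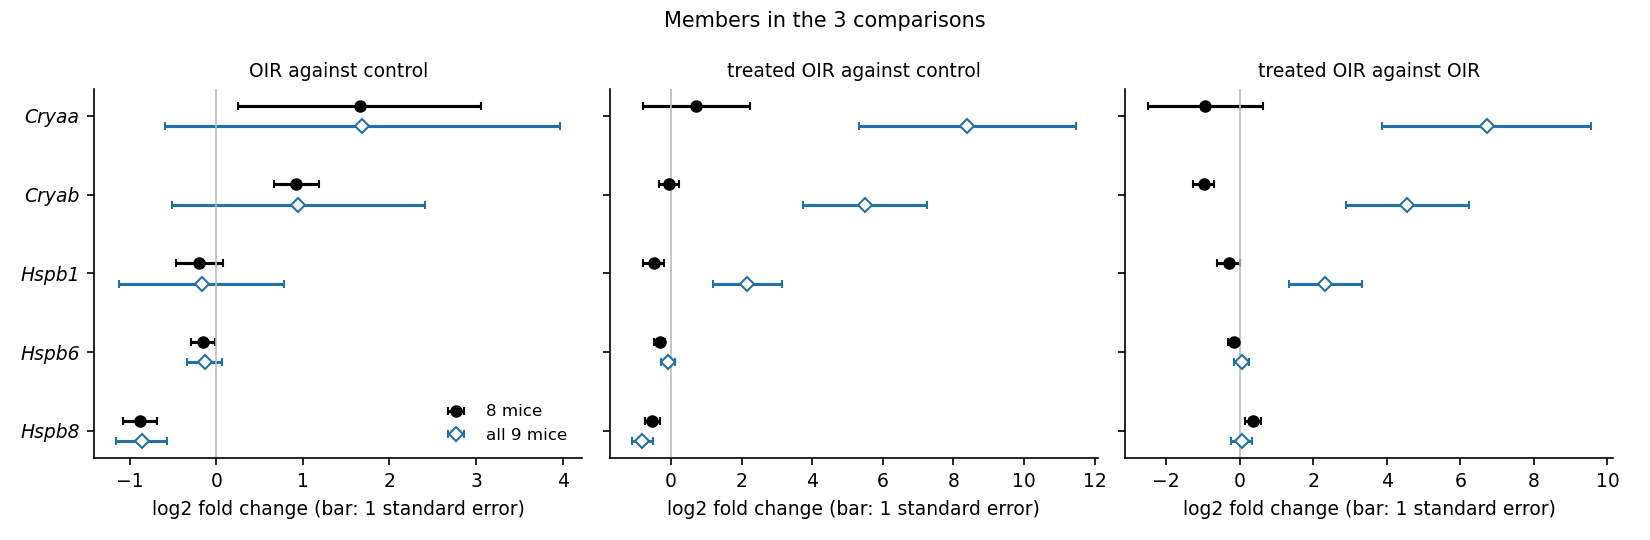
Log2 fold change of each gene (horizontal axis, bars of 1 standard error) in the 3 comparisons, from the 8 mice fitted (filled circles) and from all 9 mice (open diamonds). Keeping treated OIR mouse 2 gave positive values for Cryaa, Cryab and Hspb1 in both comparisons of treated OIR, of which only Cryaa against control (0.72) was positive in the 8 mice, and left the OIR against control values near 0.95 for Cryab and -0.86 for Hspb8 with wider errors.

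Treated OIR mice 5 and 10 were compared with control to ask which members still differed after the inhibitor. None of the 5 members passed the test (edgeR), where 3 of 18116 genes did (0.0166%). DESeq2 called 2.31% of the genes, the fit without a filter 2.14% and the fit of all 9 mice 0.0228%, and none of the 5 members was among them. Hspb8 stood at 11.7 and 12.1 CPM, below all 3 control mice, and was the 1 member whose groups did not overlap, which held for 16.8% of all genes in the lower and 18.8% in the higher direction. Its log2 fold change was -0.53 (SE 0.21, unadjusted p = 0.0356, adjusted p = 0.320). Cryab stood at 95.2 and 65.3 CPM, within the range of control, with a log2 fold change of -0.06 (SE 0.29, adjusted p = 0.939). Hspb6, at 132 and 110 CPM, had a log2 fold change of -0.32 (SE 0.15, adjusted p = 0.373). Hspb1, at 10.5 and 7.50 CPM, had -0.49 (SE 0.31, adjusted p = 0.488). For Cryaa the log2 fold change was 0.72 with an SE of 1.52.

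The comparison of treated OIR with OIR addressed the effect of 32-134D itself. No member passed the test, and no gene did (0 of 18116 genes, 0.0%, by edgeR, with 2362 at an unadjusted p below 0.05). DESeq2 called 637 genes (3.52%) and the fit without a filter 1319 (4.4%). Cryab stood at 95.2 and 65.3 CPM in treated OIR mice 5 and 10, below all 3 OIR mice, whose lowest was 129 CPM. Its log2 fold change was -0.99 (SE 0.29, unadjusted p = 0.00812, edgeR adjusted p = 0.224). It passed the threshold with DESeq2 (adjusted p = 0.0115) and without a filter on low counts (edgeR adjusted p = 1.99e-05), and not with limma-voom (adjusted p = 0.0957). Without the filter the log2 fold change of Cryab was again -0.99, and only its SE was smaller (0.17). After the lens-carried amount was taken away, 58.7 and 64.9 CPM of Cryab remained in treated OIR mice 5 and 10, below the 79.1 to 191 CPM of OIR, with a log2 fold change of -1.001 (SE 0.34, edgeR adjusted p = 0.262).

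Hspb8 stood at 11.7 and 12.1 CPM in treated OIR mice 5 and 10, above the highest OIR mouse at 10.9 CPM, with a log2 fold change of 0.35 (SE 0.21, edgeR adjusted p = 0.559). That log2 fold change was 0.13 without OIR mouse 6 and 0.05 with treated OIR mouse 2 kept. Hspb1 and Hspb6 had log2 fold changes of -0.30 (SE 0.31) and -0.17 (SE 0.15), and Cryaa of -0.93 (SE 1.58). With log2 CPM scaled over the 8 mice, groups did not overlap for 1 member in the higher direction (Hspb8) and 2 in the lower direction (Cryab and Hspb1), against 18.1% and 14.4% of all genes. Hspb6 overlapped narrowly on that scale and not in the CPM scaled over 9 mice, where treated OIR mouse 5 (132 CPM) lay just below OIR mouse 5 (135 CPM). All 3 comparisons share mice, and with 2 treated OIR mice a member past the threshold in OIR but not in treated OIR is not shown to differ between them.

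Among 12 partners of Hspb8 and Cryab 1 rose and 2 fell in OIR, where 3.95% of all genes tested rose and 8.59% fell. Stub1, the ubiquitin ligase that works with Bag3 and Hspb8, fell by 0.58 on the log2 scale (SE 0.12, adjusted p = 0.0130), with 70.6, 68.9 and 93.0 CPM in control mice 1, 6 and 7 and 50.2, 55.6 and 51.9 CPM in OIR mice 3, 5 and 6. Sqstm1, the autophagy receptor p62, fell by 0.38 (SE 0.10, adjusted p = 0.0431). Bag3 itself, whose protein holds Hspb8 and Hspa8 in the complex, stood at 12.3 to 20.1 CPM in control and 16.8 to 32.7 CPM in OIR and did not pass the test (log2 fold change 0.71, SE 0.27, adjusted p = 0.114). Nes, which encodes the intermediate filament nestin, rose (log2 fold change 1.01, SE 0.19, adjusted p = 0.00990). The median over the 12 partners was 0.0002 on the log2 scale.

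**Figure D5:**
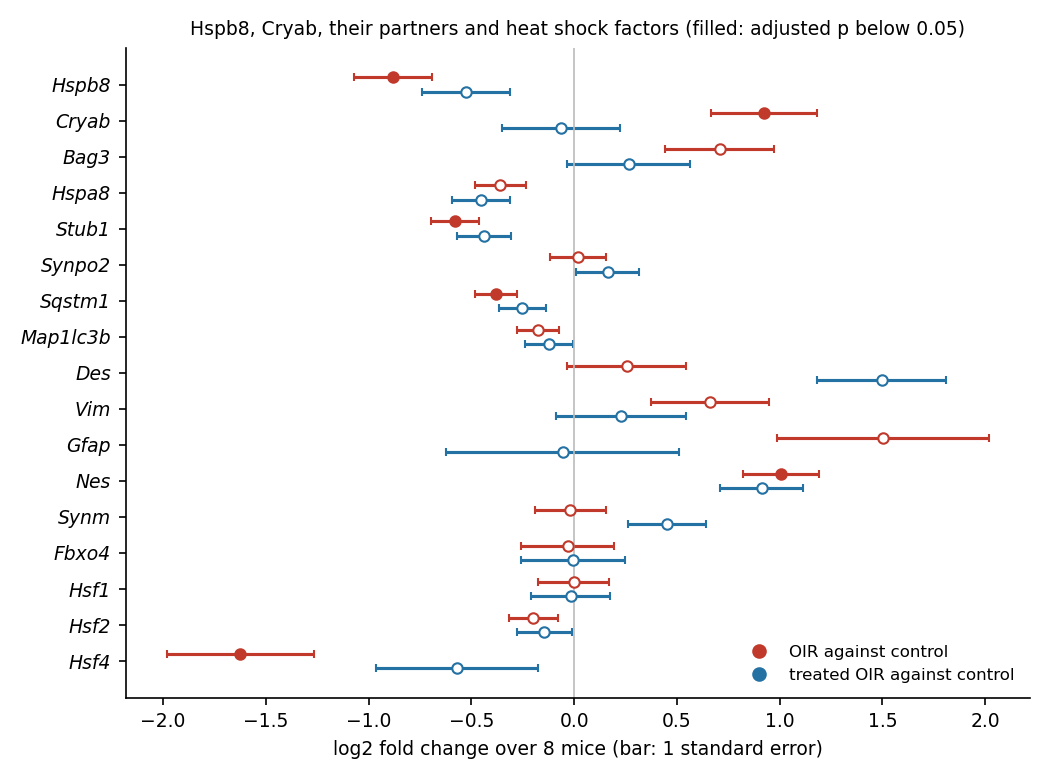
Log2 fold change over the 8 mice (bars of 1 standard error) of Hspb8, Cryab, their 12 partners and 3 heat shock factors in OIR against control (red) and treated OIR against control (blue); filled points had an adjusted p below 0.05. Hspb8, Stub1, Sqstm1 and Hsf4 were filled on the lower side and Cryab and Nes on the higher side, all in OIR, and no point of treated OIR was filled.

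Of 25 heat shock chaperones and factors none rose and 2 fell in OIR, the HSP90 co-chaperones Stip1 (log2 fold change -0.39, SE 0.09, adjusted p = 0.0217) and Ahsa1 (-0.35, SE 0.08, adjusted p = 0.0262). Of all genes tested 3.95% rose and 8.59% fell. The median of the 25 was -0.10. Of the 24 lens genes tested none rose and 1 fell, Hsf4, the heat shock factor that drives crystallin genes in lens fibers and is also made in other tissues. Hsf4 stood at 5.73, 5.004 and 7.61 CPM in control mice 1, 6 and 7, at 2.62, 2.38 and 1.03 CPM in OIR mice 3, 5 and 6, and at 76.1 CPM in treated OIR mouse 2. Every OIR mouse lay below every control mouse (log2 fold change -1.62, SE 0.36, adjusted p = 0.0193), although the median over the 24 lens genes was 1.13 in the other direction. In 0 of the 24 did every OIR mouse lie above every control mouse, so that median is not shown to be a rise.

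The other genes listed as small heat shock proteins were scarce. The list went by gene name, and the alpha-crystallin domain was not checked for Hspb11 or the rest. Of 6 such genes 4 passed the filter and none passed the test in OIR, the highest being Hspb11 at 10.1 to 14.0 CPM in the 8 mice, followed by Hspb2 and Hspb3, each below 1 CPM. None of 10 genes of smooth muscle and pericytes passed in OIR, and they summed to 169 to 467 CPM in OIR and 534 to 611 CPM in treated OIR mice 5 and 10, against 327 to 403 CPM in control. Skeletal muscle genes, which would mark eye muscle, summed to 9.25 to 15.0 CPM in the 8 mice, and none of the 8 tested passed. No rod gene of the list passed. Of 11 genes of pigment epithelium and cornea 1 fell, Rgr, a light-sensitive pigment epithelium and glial protein (log2 fold change -1.06, SE 0.24, adjusted p = 0.0225). The shares over all genes tested in OIR against control were 3.95% higher and 8.59% lower. In both comparisons of treated OIR no gene of these lists passed.

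Hspb6 was closest over the 8 mice to Ttc1 (r = 0.962), Ruvbl2 (r = 0.960) and Mpdu1 (r = 0.957), and Hspb1 to Olfml2b (r = 0.934), Plod3 (r = 0.929) and Ddx31 (r = 0.927). Among the members themselves the highest correlation was between Cryaa and Hspb1 (r = 0.63), followed by Cryaa and Cryab (r = 0.57) and Cryab and Hspb1 (r = 0.50). These points share libraries and depth and are given with no test.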

How the data were processed

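RNA from retinas was sequenced, 1 library per mouse. The authors deposited raw counts per gene, which the submitters' processing notes tie to CASAVA and HISAT; versions, counting tool and strand setting were not given in the sources used here. Positions in the table were those of GRCm38 (98.3% of 54409 shared gene IDs sat at the same position in GENCODE M21). Counts were analysed in R 4.3.3 with edgeR 4.0.16 (TMM scaling, filterByExpr, quasi-likelihood test, 1 fit over 8 mice and 3 groups), with p-values adjusted by the Benjamini-Hochberg method over all 18116 genes tested and a threshold of 0.05. The SE of an edgeR log2 fold change was its absolute value divided by the square root of the test statistic F. It is therefore no estimate separate from the p-value. The test used by the study for these libraries was not given in the sources used here. CPM and FPKM by mouse used TMM over all 9 mice, and log2 CPM a prior count of 2. DESeq2 1.42.0 and limma 3.58.1 (voom with a quality weight for each library) were alternatives. Sex, a covariate in another alternative, was inferred from counts of Xist against Y-linked genes. Control and OIR each had 1 female and 2 male mice by this rule. Treated OIR, with mouse 2 included, had 2 female and 1 male. The methods were tested on simulated data. Tables and figures were made in Python 3.11.15. Lens-carried amounts were Cryaa CPM times the excess of a gene per Cryaa excess in treated OIR mouse 2 over treated OIR mice 5 and 10. The members and gene lists were chosen with earlier results of these data known. Named were the 5 members, the list genes past the threshold (or the 3 highest where none passed), the 3 genes nearest to each member by Pearson r and the crystallins among the 10 highest in treated OIR mouse 2 (the remainder is not reported here); Gfap, Bag3, Sag and Cryga were named after their values were seen, as was the choice of motifs. Labels gave no library batch, and whether mice of a group came from separate litters was not given.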

Additional observations from a re-analysis of the deposited data

Results flagged for a closer look

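Treated OIR mouse 2 was left out of the 8 mice fitted and entered only the alternative over all 9 mice, and 4 of the 5 genes stood above the highest control mouse in it: Cryaa at 56963 CPM, Cryab at 11254 CPM, Hspb1 at 152 CPM and Hspb6 at 189 CPM. The corresponding highest control values were 102, 103, 17.8 and 185 CPM. The lens crystallins Crygd, Cryba1 and Crybb2 were among its 5 highest genes.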

How the results depend on the processing

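The fall of Hspb8 in OIR held its direction in 19 of 19 alternatives and passed the threshold in 16. The rise of Cryab held its direction in 19 of 19 and passed in 9. Of the 5 members, 2 passed in OIR against control; 0 passed with treated OIR mouse 2 kept (165 genes in all, against 2272) or with an absolute log2 fold change above 1 required as well (901 genes), and 1 passed with Cryaa as a covariate (1408 genes), with the 2 groups fitted alone and with lens-carried counts subtracted. In treated OIR against control the 3 genes called became 419 with DESeq2, 241 with limma-voom, 7 with total counts alone, 642 without a filter, 1 with Cryaa as a covariate and 36 with the 2 groups alone, and 0 members passed in each. In treated OIR against OIR the 0 genes became 637 with DESeq2 and 1319 without a filter, each with 1 member, Cryab, and 1 gene with limma-voom. With all 9 mice the log2 fold changes reversed for Cryab (5.50 against control, 4.56 against OIR), Hspb1 (2.16 and 2.33), Cryaa against OIR (6.71) and Hspb6 against OIR (0.050). Cryaa in treated OIR against control reversed with limma-voom (-1.44) and with sex as a covariate (-1.10). The cause was not tested. Leaving out 1 mouse at a time gave 1004 to 2351 genes and 0 to 2 members in OIR against control, 0 to 31 genes in treated OIR against control and 0 to 129 in treated OIR against OIR, with 0 members in both. The log2 fold change changed sign among these omissions for Hspb1 (-0.40 to 0.15) and Hspb6 (-0.23 to 0.030) in OIR against control, for Cryaa (-4.79 to 1.72) and Cryab (-0.36 to 0.19) in treated OIR against control and for Cryaa (-6.45 to 0.67) in treated OIR against OIR. Where this left 1 treated OIR mouse, its spread was taken from the other groups. No paired analysis was possible because the title numbers did not tie mice of different groups together.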
